A study of Oryza sativa with 4 samples.

Results

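Homeobox genes encode proteins that share the homeodomain, a DNA-binding fold. Their accessible chromatin was followed here in rice leaf blades of the wild type (WT) and of the Oshmgb1 mutant. Members were all peaks of the deposited table whose gene symbol began with HOX, WOX, ROC or OSH followed by a digit, or whose description named a homeobox or a homeodomain. That gave 192 of 46114 listed peaks, at 93 of the 27130 genes with a listed peak. The rule used no read count, but it was chosen with earlier results of these data known. All 192 peaks passed the filter on low counts, with at least 29 reads in every library. The genes were placed in subfamilies by symbol and description. The HD-Zip classes I to IV held 20, 21, 12 and 25 peaks, KNOX held 11, BELL 31, WOX 7, ZF-HD 15 and the PHD finger group 6. A further 22 peaks belonged to other plant homeodomain proteins, namely the RINGLET-like genes RLT1, RLT2 and RLT3, NDX, LD, SHH1 and SHH2. The last 22 peaks, at 12 genes, could not be placed. Their descriptions mostly borrow names from animal homeobox proteins such as even-skipped or OTX1, and 1 of these genes carries the symbol of a chromatin remodeller, CHR4. The label "transcription factors" therefore does not describe every member.

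ATAC-seq measures how often the Tn5 transposase inserts into DNA, so reads collect where chromatin is open. The 2 groups were WT and Oshmgb1, a mutant named for a rice HMGB gene, a class of DNA-bending chromatin proteins, with 2 libraries each. Every library came from leaf blades of greenhouse seedlings that had spent 28 days under the regime the labels call HP, so both genotypes share that regime and no other regime was measured in these libraries. The labels do not spell out HP, the kind of Oshmgb1 allele or how many plants or lines stand behind a library. Nothing in them says that the libraries of a group came from separate plants, so p-values measure the spread between libraries, which may be technical.

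In plants, KNOX proteins keep shoot meristems undifferentiated and work in pairs with BELL proteins. WOX proteins act in stem cell niches and lateral organs. HD-Zip proteins join the homeodomain to a leucine zipper. Class I members take part in responses to water deficit and abscisic acid, class II members in responses to light quality, class III members in the upper side of the leaf and in vascular tissue, and class IV members in the epidermis. Open chromatin at a gene does not show that the gene is transcribed.

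The libraries held 7228483 and 8183354 reads in listed peaks for WT and 10400677 and 8516630 for Oshmgb1, with a median of 105 to 155 reads per peak. Levels are given as CPM, the common depth-scaled read count, computed on the reads in listed peaks after TMM scaling. Where genes are compared, CPM is divided by peak width in kb. Each difference is a log2 fold change, Oshmgb1 relative to WT, and is given ± a standard error (SE). The SE was back-calculated as the absolute log2 fold change divided by the square root of edgeR's F statistic. At the gene for which the mutant is named, the table lists the symbol HMGB2 and a promoter peak at 124 and 136 CPM in WT and 112 and 115 CPM in Oshmgb1. The difference was −0.19 ± 0.10 (SE) on the log2 scale, with an adjusted p of 0.396 in edgeR's quasi-likelihood test. Open chromatin at this gene does not test whether its product was lost. The 27 peaks of 16 genes for chlorophyll-binding proteins and the Rubisco small subunit had a median of 61.5 CPM per kb, against 25.6 for all listed peaks, and summed to 1380 and 1417 CPM in WT and 1327 and 1307 CPM in Oshmgb1. The single peaks of the meristem genes OSH1 and WOX1A (the WUSCHEL-type gene) lay at 18.3 and 20.4 CPM per kb, and the 2 peaks of FON2, a meristem signalling peptide gene, at a median of 31.7. These values do not show how many meristem cells the samples held.

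The question the table can first answer is where homeobox genes were open. They carried more listed peaks than the average gene, 2.06 against 1.70, and 38 genes (40.9%) had a single listed peak against 54.2% of all genes. A promoter peak is one annotated within 2 kb upstream of a gene start. Promoters held 65 of the homeobox peaks (33.9%), close to the 35.1% of all listed peaks. Exons held 21 (10.9%), against 20.6% of all peaks. Introns held 37 (19.3% against 18.03%). The 5′ UTR class held 18 (9.38% against 6.97%), the 3′ UTR class 20 (10.4% against 7.64%) and the downstream class 31 (16.1% against 11.7%). The homeobox set was thus about as promoter-bound as the genome but poorer in exon peaks. These shares are descriptions with no test. For 5 of the 31 downstream peaks, at BEL1 (LOC_Os10g39030), HOX25, ROC9 and ROC5 (2 peaks), the nearest gene start was that of another gene, so they may not belong to the homeobox gene.

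**Figure D1:**
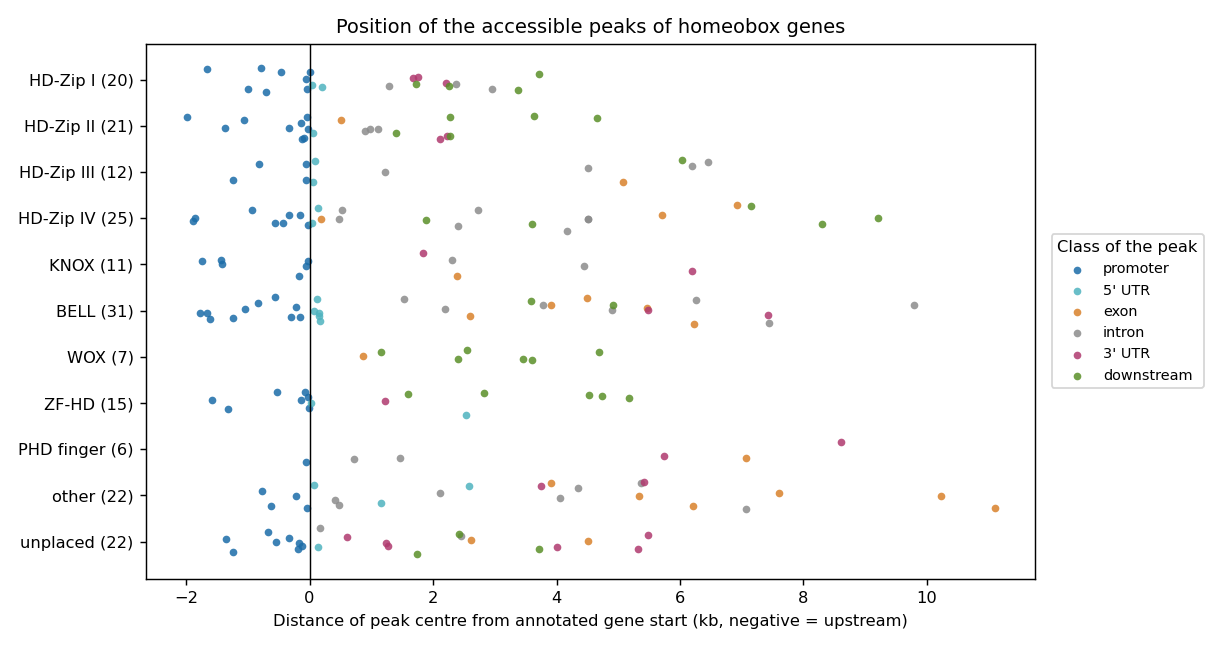
Distance of each of the 192 homeobox peak centres from the start of its annotated gene, in kb (horizontal axis, negative upstream), by subfamily with the number of peaks in parentheses; colour gives the class of the peak. The 7 WOX peaks all lie to the right of the gene start, while 40 peaks of the whole set are centred within 200 bp of a start.

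How many genes had a promoter or 5′ UTR peak varied by subfamily. Such a peak may lie up to 2 kb upstream or inside the gene, as at ZHD9, where a 5′ UTR peak is centred 2529 bp from the start. A promoter or 5′ UTR peak was listed for 68 of the 93 genes (73.1%), against 62.1% of all genes. It was present at 10 of 10 BELL genes, 7 of 7 ZF-HD genes, 4 of 4 HD-Zip III genes, 10 of 11 HD-Zip II genes and 6 of 7 KNOX genes. HD-Zip I had it at 7 of 10 genes and HD-Zip IV at 9 of 15. With promoter peaks restricted to those annotated within 1 kb, the count was 59 of 93 homeobox genes (63.4%, against 52.5% of all genes), with 9 of 10 BELL genes, 7 of 11 HD-Zip II genes, 3 of 7 KNOX genes and 8 of 15 HD-Zip IV genes. No WOX gene had one by either count (0 of 6). Listed peaks per gene averaged 3.1 in BELL, 3 in HD-Zip III, 2.14 in ZF-HD, 2 in HD-Zip I and 1.91 in HD-Zip II. The means were 1.67 in HD-Zip IV, 1.57 in KNOX and 1.17 in WOX, where 5 of 6 genes had a single listed peak. The part of peak number in these counts was not tested. The 7 WOX peaks were 6 downstream peaks, at WOX1A, WOX5, WOX8, WOX9, WOX10 and WOX11, and 1 exon peak at WOX8. Listed peaks start from the authors' merged peak set, of which 80.3% of the peak numbers appear in the table, and the others were not analysed here. An unlisted start is therefore not shown to be closed.

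KNOX genes were open at varied distances from the start. OSH1, the class I gene that maintains the shoot meristem, had a single peak in intron 2 of 3, centred 2305 bp into the gene, with 12.8 and 12.8 CPM in WT and 12.9 and 16.0 CPM in Oshmgb1. OSH71, another class I gene, had a single promoter peak centred at −1418 bp from its start, upstream. The class II genes HOS58, HOS59 and OSH45 had promoter peaks centred at −21, −50 and −176 bp from the start, while the single peak of HOS66, also class II, was centred at −1744 bp. OSH15, a class I gene of internode development, had no listed peak.

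Levels per kb placed homeobox peaks slightly above the genome. The median was 28.8 CPM per kb against 25.6 for all listed peaks, and 37.0 against 29.05 within promoters, at a median width of 607 bp against 560 bp. KNOX (38.2), HD-Zip I (36.2) and BELL (34.5) had the highest subfamily medians, and PHD finger (22.2), WOX (24.5) and HD-Zip IV (26.0) the lowest. HD-Zip III stood at 29.2, HD-Zip II at 27.8, ZF-HD at 27.5, the other plant homeodomain proteins at 27.2 and the unplaced genes at 29.1 CPM per kb. Medians of subfamilies with few genes rest on few regions, and no test was made between them.

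**Figure D2:**
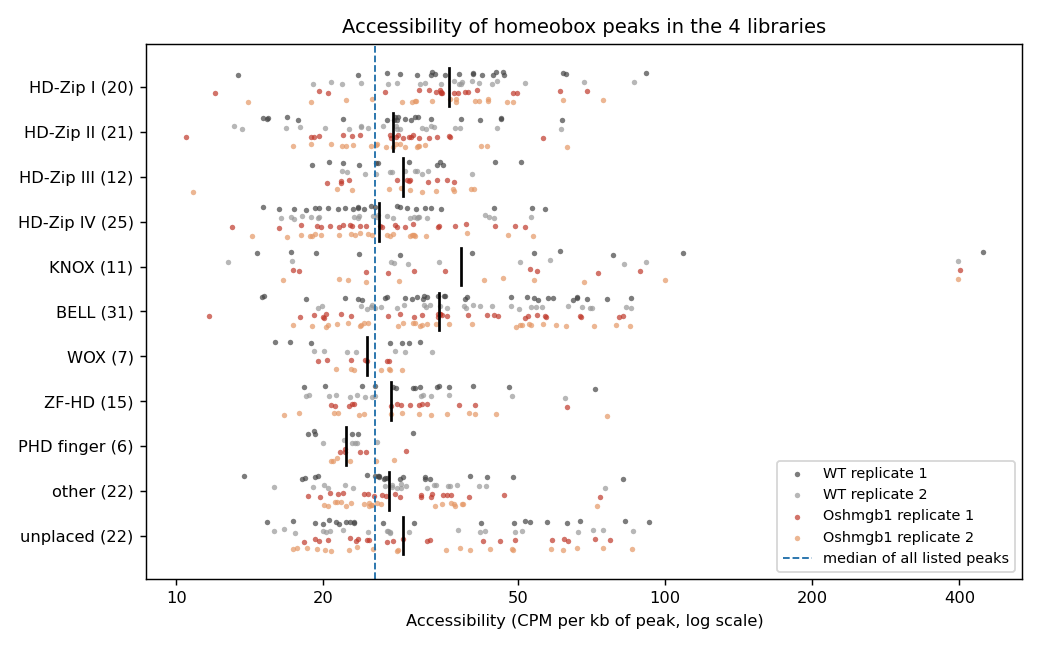
Accessibility of every homeobox peak in each of the 4 libraries, in CPM per kb of peak on a log scale, by subfamily; each dot is 1 peak in 1 library, black bars are subfamily medians and the dashed line is the median of all listed peaks (25.6). One KNOX peak, at OSH10, lies at a mean of 411 CPM per kb, to the right of all others in every library.

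The OSH10 region was the most open of the set. OSH10 is a KNOX gene, and its peak (chromosome 3, 26606924 to 26607455, coordinates as in the deposited table, whose genome build the sources used here do not give) is centred at −1440 bp from the gene start (negative is upstream). It held 237 and 212 CPM in WT and 213 and 211 CPM in Oshmgb1. At 411 CPM per kb it exceeded 99.8% of all listed peaks, and the next homeobox peak, the promoter of the class II KNOX gene HOS59, had 97.2 CPM per kb. Further open regions were a promoter peak of the OTX1-like gene LOC_Os01g48830 (85.4 CPM per kb) and promoter peaks of the BELL genes BLH2 (82.4) and BLH1 (81.6). The 3′ UTR of HOX20 followed at 80.4 CPM per kb, then the promoter of RLT1 (LOC_Os05g48820) at 75.8. Values of the OSH10 peak in the 4 libraries overlapped between genotypes, with a log2 fold change of −0.08 ± 0.09.

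The comparison of the genotypes asks whether chromatin at these genes differs in the Oshmgb1 mutant. No homeobox peak passed an adjusted p of 0.05 when edgeR's quasi-likelihood p-values were adjusted over all listed peaks by the Benjamini-Hochberg method. The 0 of 192 stands against a background of 0.403% of all peaks called, 0.321% higher and 0.0824% lower in Oshmgb1, a rate at which fewer than 1 of 192 peaks would be called. At an unadjusted p under 0.05, 20 homeobox peaks were found (10.4% against 12.2% of all peaks), of which 5 were higher (background 6.94%) and 15 lower (background 5.22%). DESeq2 called 0 homeobox peaks after adjustment (background 0.0976%) and found 5 at an unadjusted p under 0.05 (background 3.78%). In the authors' deposited table, 0 homeobox peaks had an FDR under 0.05 (background 0.102%) and 10 had a p under 0.05 (background 4.79%). Both libraries of Oshmgb1 lay above both of WT at 31 peaks and below both at 50, together 42.2% of the set against 43.2% of all peaks (21.6% in each direction). The unadjusted count moved with single libraries, to 32 without WT replicate 2 (background 14.1%), 8 without Oshmgb1 replicate 1 (8.98%) and 12 without Oshmgb1 replicate 2 (7.64%). In such fits the group left with 1 library is assumed to vary like the other group, from which the spread is taken. Adjusted calls numbered 1 without Oshmgb1 replicate 1 (background 0.223%), 1 with the library totals behind the RPKM (0.479%), and 0 with a replicate block (0.388%) or without WT replicate 2 (1.15%). The median log2 fold change was −0.04, against −0.01 for all peaks, and single peaks ranged from −0.76 to 0.66. In the homeobox set 107 of 192 peaks (55.7%) were below 0, against 51.1% of all listed peaks. The 17048 listed peaks at least as open as the homeobox median (28.8 CPM per kb) were 62.1% below 0, at a median of −0.05. Of them, 26.9% had no overlap with Oshmgb1 lower and 12.6% with Oshmgb1 higher. The homeobox set also holds less open peaks, so the sets are not matched. The part of openness was not tested.

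The 95% intervals, taken peak by peak, give the differences that the spread between these libraries allows. That spread may be technical, so they do not bound the difference between plants of each genotype. The 95% interval of the log2 fold change excluded a 2-fold difference in either direction at 187 of 192 peaks (97.4%, against 95.2% of all peaks). It excluded a 1.5-fold difference at 129 (67.2% against 57.9%). Homeobox peaks had a median of 17.9 CPM against 14.7 for all listed peaks, and a median SE of 0.186 against 0.200. The part of read number in these shares was not tested. Among the 65 promoter peaks, 0 were called (background 0.451% of promoter peaks) and 6 had an unadjusted p under 0.05 (background 11.4%). With reads summed over the peaks of a gene, 0 of 93 genes were called (background 0.546%) and 11 had an unadjusted p under 0.05 (11.8% against 12.5%).

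**Figure D3:**
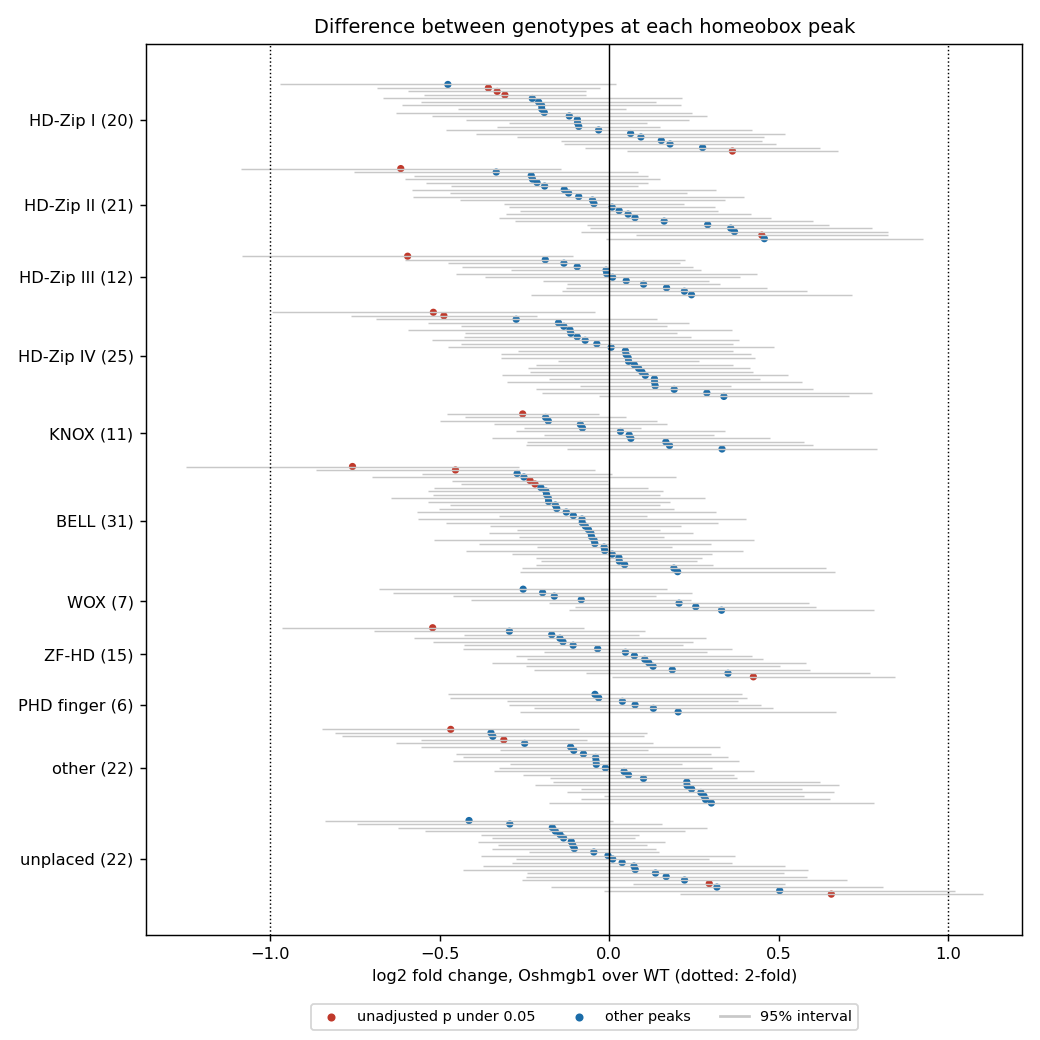
Log2 fold change of Oshmgb1 over WT (horizontal axis) at each of the 192 homeobox peaks, ordered within subfamilies; grey lines are 95% intervals, red dots have an unadjusted p under 0.05 and dotted lines mark a 2-fold difference. Points range from −0.76 to 0.66, and intervals exclude a 2-fold difference at 187 peaks.

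The 4 HD-Zip III genes, which specify the upper side of leaves and xylem and are targets of a conserved microRNA, had 12 peaks with a median log2 fold change of 0.00, and −0.03 to 0.06 with 1 library left out. Summed over its peaks, HOX32 had 64.9 and 67.1 CPM in WT and 69.2 and 72.0 CPM in Oshmgb1, a difference of 0.10 ± 0.10. HOX33 had 74.9 and 80.9 CPM in WT and 84.2 and 83.3 CPM in Oshmgb1, a difference of 0.10 ± 0.10. Both genes had each Oshmgb1 library above each WT library, by less than 1.5-fold. Across all 27130 genes with summed reads, 6050 had each Oshmgb1 library above each WT library. HOX10 had 40.4 and 44.9 CPM in WT and 42.4 and 42.7 CPM in Oshmgb1, and the values overlapped. HOX9 had 97.2 and 83.9 CPM in WT and 86.2 and 85.5 CPM in Oshmgb1, also overlapping. Within HOX9 a peak in exon 15 of 19 had 8.42 and 8.68 CPM in WT and 7.26 and 3.85 CPM in Oshmgb1, so its lower level came with a wide spread in the mutant (−0.60 ± 0.25, adjusted p = 0.289 in edgeR's test). HD-Zip III genes were also open far inside the gene. A peak of HOX33 in intron 17 of 17 was 2037 bp wide and held 52.6 and 55.7 CPM in WT and 60.5 and 55.6 CPM in Oshmgb1.

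HD-Zip I had 14 of 20 peaks below 0, against 51.1% of all listed peaks, with a median log2 fold change of −0.11. These peaks lie at 10 genes, of which 7 were below 0 with summed reads, and peaks of 1 gene are not replicates. Leaving out 1 library gave 11 to 13 peaks below 0 and a median of −0.11 to −0.07, the lowest count and the weakest median being without WT replicate 1. Both Oshmgb1 libraries lay below both WT libraries at 6 of the 20 peaks and above at 2 (background 21.6% in each direction). HOX16 had a promoter peak centred on the gene start (chromosome 2, 30380817 to 30381789) with 45.5 and 39.2 CPM in WT and 32.0 and 35.3 CPM in Oshmgb1. The groups did not overlap there, at −0.33 ± 0.13 (adjusted p = 0.271, edgeR). Summed over its 3 peaks HOX16 had 89.2 and 69.3 CPM in WT and 61.8 and 68.3 CPM in Oshmgb1, and the lower WT library lay close to the higher mutant library. That sum had an adjusted p of 0.196 and passed the threshold in 1 of the alternatives run, without WT replicate 2 (−0.46, adjusted p = 0.0147, edgeR), where WT is a single library and the spread comes from the mutant libraries. The 3′ UTR peak of HOX20 (chromosome 8, 23803479 to 23804065) had 53.7 and 50.7 CPM in WT and 40.7 and 43.7 CPM in Oshmgb1, −0.31 ± 0.12 with an adjusted p of 0.261 in edgeR's test.

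HOX22 and HOX24 are class I genes known for responses to abscisic acid and drought. HOX22 had 47.7 and 45.6 CPM in WT and 37.4 and 44.3 CPM in Oshmgb1. HOX24 had 104 and 112 CPM in WT and 95.8 and 104 CPM in Oshmgb1, with a log2 fold change of −0.11. Its promoter peak alone, the HD-Zip I peak with the most reads, had 84.9 and 85.5 CPM in WT and 77.7 and 82.1 CPM in Oshmgb1, a difference of −0.09. HOX12, which acts in panicle exsertion, had a summed log2 fold change of 0.18, and HOX4, which acts in plant height, −0.02. The promoter peak of HOX6 was the only HD-Zip I peak with a higher level at an unadjusted p under 0.05, with 25.1 and 21.0 CPM in WT and 28.9 and 30.3 CPM in Oshmgb1. It is named after its values were seen.

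BELL had 25 of 31 peaks below 0, against 51.1% of all listed peaks, and a median log2 fold change of −0.08. These peaks lie at only 10 genes, and peaks of 1 gene are not replicates. With reads summed per gene, 7 of the 10 BELL genes were below 0. Both Oshmgb1 libraries lay below both WT libraries at 12 of the 31 BELL peaks and above at 0 (background 21.6% in each direction). The number below 0 was 25 with DESeq2 size factors, 23 with library totals alone and 28 with the totals behind the RPKM, and 21 to 24 when any 1 library was left out. Among all 10304 listed peaks at least as open as the BELL median of 34.5 CPM per kb, 66.1% were below 0, with a median of −0.07, and 29.5% had no overlap with Oshmgb1 lower against 10.7% higher. For the 8947 peaks at least as open as the HD-Zip I median of 36.2 CPM per kb, 66.9% were below 0 and 30.2% had no overlap with Oshmgb1 lower. These shares below 0 are higher than the 51.1% of all listed peaks, so openness moved with the sign of the difference across the table. The comparison sets keep only peaks at or above each median. BELL and HD-Zip I also hold less open peaks, so the sets are not matched in openness. In WT, listed peaks held 27.5% and 27.0% of the library totals behind the RPKM, and in Oshmgb1 26.2% and 25.9%. The part of openness or of this share in the BELL and HD-Zip I values was not tested.

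The BELL peak with the lowest p lay in the 5′ UTR of BEL1 (LOC_Os03g03260; chromosome 3, 1394411 to 1394746). It held 7.44 and 8.80 CPM in WT and 3.91 and 5.83 CPM in Oshmgb1, −0.76 ± 0.25 with an adjusted p of 0.155 in edgeR's test. This was the most negative log2 fold change of the set and also 1 of its shallower peaks. A second BEL1-annotated gene, LOC_Os10g39030, named after its values were seen, had both mutant libraries below both WT libraries at each of its 4 peaks (background 21.6% of peaks). Peaks of 1 gene are not replicates and the gene was picked for its values, so this separation adds no support. Its summed reads had an adjusted p of 0.397 in edgeR's test. Its downstream peak, which may belong to another gene whose start is nearer, had 69.0 and 66.4 CPM in WT and 57.3 and 59.0 CPM in Oshmgb1. The qSH1 and SH5 genes, which control seed shattering and both carry the symbol BLH9 in the table, were also listed. qSH1 (LOC_Os01g62920) had 89.6 and 73.4 CPM in WT and 72.2 and 86.9 CPM in Oshmgb1, and SH5 (LOC_Os05g38120) had 13.8 and 16.5 CPM in WT and 15.6 and 16.9 CPM in Oshmgb1. The genotypes overlapped at both genes. The promoter of BLH2, the BELL peak with the most reads, had 90.8 and 92.9 CPM in WT and 88.3 and 93.5 CPM in Oshmgb1.

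KNOX peaks had 5 of 11 log2 fold changes below 0 and a median of 0.03, which turned to −0.07 without Oshmgb1 replicate 2 and −0.05 without WT replicate 2. The single OSH1 peak had a difference of 0.17 ± 0.20, with 1 mutant library level with WT and the other above it. OSH71 had 42.2 and 39.7 CPM in WT and 43.1 and 42.5 CPM in Oshmgb1, a difference of 0.06. The 3′ UTR peak of HOS59, named after its values were seen, was the only KNOX peak with an unadjusted p under 0.05, at 65.5 and 62.7 CPM in WT and 57.0 and 50.1 CPM in Oshmgb1. WOX had 4 of 7 peaks below 0. WOX11, which drives crown root emergence, had 26.9 and 32.7 CPM in WT and 26.5 and 26.9 CPM in Oshmgb1 in its downstream peak, a difference of −0.16. The median of the WOX peaks was −0.08 and became 0.02 without Oshmgb1 replicate 1.

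Class IV of HD-Zip, the ROC genes of the epidermis, had 10 of 25 peaks below 0 and a median of 0.05, which turned to −0.02 with 13 of 25 below 0 when either WT library was left out. ROC5, which restrains bulliform cells and so affects leaf rolling, had 127 and 120 CPM in WT and 130 and 133 CPM in Oshmgb1 over its 3 peaks, a difference of 0.09 ± 0.09. Except for the promoter peak, these lie downstream, nearest to the start of another gene, and may not belong to ROC5. Its promoter peak alone had 94.98 and 74.8 CPM in WT and 86.5 and 89.8 CPM in Oshmgb1, and these values overlapped. ROC4, known for cuticular wax synthesis, had 28.1 and 29.7 CPM in WT and 31.4 and 29.6 CPM in Oshmgb1. Some class IV entries were placed by symbol or description alone. These are LOC_Os03g55990, which carries the symbol HOX10 but is described as ROC4-like, LOC_Os08g19590, which carries the symbol ROC6, LOC_Os07g47130, which carries the symbol ROC8 beside the ROC8 gene LOC_Os06g10600, and the HDG7-like gene LOC_Os07g24330.

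The lowest p of the whole set belonged to the entry LOC_Os07g47130, whose only peak lies downstream of its gene (chromosome 7, 28183759 to 28184572). It held 43.5 and 43.3 CPM in WT, a mean of 43.4 ± 0.164 (SD, n = 2), and 36.5 and 25.0 CPM in Oshmgb1, a mean of 30.7 ± 8.14 (SD, n = 2). Both mutant libraries were lower, but they differed from each other by more than the first of them differed from WT. The log2 fold change was −0.49 ± 0.14, with an adjusted p of 0.0827 in edgeR's test, and the authors' deposited table gives −0.54 with an FDR of 0.875. Without Oshmgb1 replicate 1 the same peak stood at −0.79 with an adjusted p of 0.0175, a fit in which the mutant is a single library and the spread comes from the WT libraries. With the library totals behind the RPKM it stood at −0.53 with an adjusted p of 0.0423. The annotated gene is 913 bp long, and its description is homeobox 1-like, so its place among the ROC genes is uncertain.

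**Figure D4:**
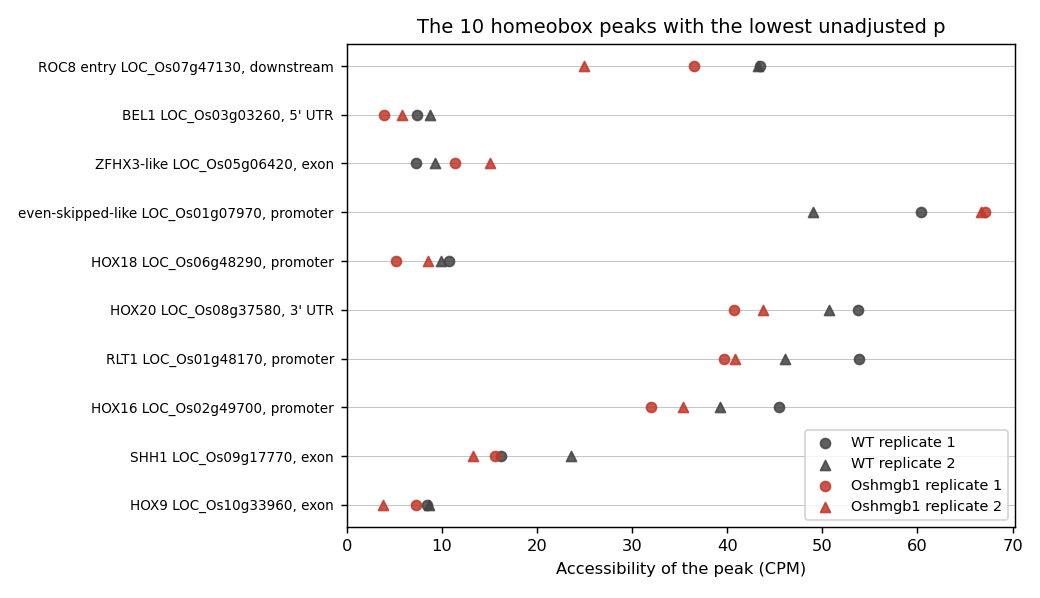
CPM in each library (horizontal axis, from 0) of the 10 homeobox peaks with the lowest unadjusted p; grey symbols are WT and red symbols Oshmgb1, with circles for replicate 1 and triangles for replicate 2. None passed the adjusted threshold, and 8 are lower and 2 higher in Oshmgb1. The genotypes overlap at none of the 10, which were picked for a low p in this same comparison. Across all listed peaks, 43.2% have no overlap.

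Among these 10 peaks only the 2 of unplaced genes were higher in Oshmgb1. A peak in exon 3 of 3 of LOC_Os05g06420, described by the name of the animal protein ZFHX3, held 7.29 and 9.29 CPM in WT and 11.4 and 15.04 CPM in Oshmgb1, 0.66 ± 0.23 with an adjusted p of 0.181 (edgeR). A promoter peak of the even-skipped-like gene LOC_Os01g07970 held 60.3 and 49.0 CPM in WT and 67.1 and 66.7 CPM in Oshmgb1, 0.30 ± 0.11 with an adjusted p of 0.249 (edgeR). No role in rice is stated for either gene in the sources used here. The promoter of HOX18, an HD-Zip II gene, held 10.8 and 9.90 CPM in WT and 5.16 and 8.51 CPM in Oshmgb1, −0.62 ± 0.24 with an adjusted p of 0.252 (edgeR).

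Homeodomain proteins outside the main transcription factor classes had 12 of 22 peaks below 0 and a median of −0.02, and −0.03 to 0.04 with 1 library left out. In Arabidopsis, RINGLET proteins are partners of ISWI-type chromatin remodellers and SHH1 reads histone methylation in RNA-directed DNA methylation. The promoter peak of the gene LOC_Os01g48170, annotated as RLT1, held 53.9 and 46.1 CPM in WT and 39.6 and 40.8 CPM in Oshmgb1, −0.31 ± 0.12 with an adjusted p of 0.267 in edgeR's test. The second gene annotated as RLT1, LOC_Os05g48820, had 68.3 and 62.7 CPM in WT and 61.3 and 60.4 CPM in Oshmgb1 at its promoter, −0.10. A peak in exon 6 of 9 of SHH1 held 16.3 and 23.6 CPM in WT and 15.6 and 13.3 CPM in Oshmgb1, −0.47 ± 0.19 with an adjusted p of 0.282 (edgeR).

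The medians of the remaining subfamilies crossed 0 when 1 library was left out, except in the PHD finger group (0.01 to 0.09). They ranged from −0.05 to 0.03 in HD-Zip II, −0.05 to 0.15 in ZF-HD and −0.06 to 0.04 among unplaced genes. HD-Zip II had 11 of 21 peaks below 0 with a median of −0.05, and its peak with the most reads, the HOX1 promoter, held 36.8 and 36.5 CPM in WT and 33.6 and 37.6 CPM in Oshmgb1. ZF-HD had 7 of 15 below 0 with a median of 0.05, and its most read-rich peak, in the 5′ UTR of ZHD9, held 51.6 and 44.8 CPM in WT and 45.3 and 54.6 CPM in Oshmgb1. The PHD finger group had 2 of 6 below 0. Its gene HAZ1 had 33.6 and 35.7 CPM in WT and 36.9 and 36.3 CPM in Oshmgb1, and the 3′ UTR peak of PRH had 23.0 and 19.4 CPM in WT and 22.3 and 21.1 CPM in Oshmgb1. Among unplaced genes, 11 of 22 peaks were below 0, and the 3′ UTR peak of the OTX1-like gene with the most reads held 110 and 116 CPM in WT and 111 and 108 CPM in Oshmgb1. Of the 17 well studied genes fixed by identifier, 16 had a listed peak, and the adjusted p of their summed reads was between 0.524 and 0.991 in edgeR's test.

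A list matched by symbol or description to proteins that act with or downstream of homeodomain proteins gave 86 peaks at 51 genes. It held OVATE family proteins, which bind KNOX and BELL proteins, and LITTLE ZIPPER proteins, which bind HD-Zip III proteins. It also held gibberellin 2- and 20-oxidases, isopentenyltransferases and LOG cytokinin enzymes, families with members downstream of KNOX proteins. Some matches rested on the symbol alone and are other proteins by their description, namely 8 peaks of 4 E3 ubiquitin ligases with the symbol LOG2, 1 peak of a BTB/POZ protein with the symbol IPT2 and 7 peaks of the zinc finger protein zpr1. Without these, 70 peaks at 45 genes remained. None of the 86 or of the 70 peaks was called (background 0.403%). An unadjusted p under 0.05 was found at 8 (9.30% of the 86 and 11.4% of the 70, against 12.2% of all peaks), 6 higher and 2 lower, all among the 70. The 86 peaks had a median log2 fold change of 0.05 and the 70 a median of 0.08. The OVATE family gene LOC_Os05g36990, with the symbol OFP7 but described as OFP13, had the lowest p, with a promoter peak at 6.73 and 9.90 CPM in WT and 14.8 and 13.9 CPM in Oshmgb1. The difference was 0.78 ± 0.22 with an adjusted p of 0.0878, and 1.09 with an adjusted p of 0.0166 without WT replicate 2 (edgeR), a setting in which 1.15% of all peaks and 3 of the 86 were called and WT is a single library, with the spread taken from the mutant. A second OFP7 peak, downstream, had 9.82 and 14.8 CPM in WT and 16.8 and 19.5 CPM in Oshmgb1, 0.55 ± 0.20 with an adjusted p of 0.225 (edgeR), or 0.0461 without WT replicate 2. At both OFP7 peaks both mutant libraries lay above both WT libraries, as at 17 of the 86 peaks and 21.6% of all listed peaks. The gene was named for its low p, so this separation adds no support.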

How the data were processed

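The deposited table lists merged ATAC-seq peaks with, for each library, a deposited read count and RPKM and, per the file headers, the authors' log2 fold change, p-value and FDR of the genotypes. Per the submitters' processing notes, the tools were bcl2fastq 2.19, MACS2 2.1.2, ChIPseeker 1.16.1, Bowtie2 2.4.4 and fastp 0.23.0. The sources used here do not state their settings, the Tn5 shift, duplicate removal or the genome build. The deposited counts of all 46114 peaks were fitted with edgeR 4.0.16 in R 4.3.3 (TMM scaling, filterByExpr, quasi-likelihood test, genotype alone, all 4 libraries), with Benjamini-Hochberg adjustment over all peaks at 0.05. The fit was tested on simulated data. Reads were also summed per gene. The library totals behind the RPKM were recovered from counts, widths and RPKM. Distances were computed from each annotated gene's start. DESeq2 1.42.0, other scalings and filters, left-out libraries, a replicate block and the authors' deposited p-value were alternatives.

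Members, subfamilies and lists were chosen with earlier results of these data known. Named were the 10 peaks with the lowest p, the peak with the highest CPM of each subfamily and 17 well studied genes by identifier. Gene roles come from general knowledge. Replicates differed beyond sampling noise (chi-square per degree of freedom 2.50 in WT, 2.25 in Oshmgb1). Intervals rest on 2 libraries a group. They were built from the back-calculated SE and a t quantile whose degrees of freedom borrow information across peaks.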

Additional observations from a re-analysis of the deposited data

How the results depend on the processing

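The 0 homeobox peaks called became 1 (the LOC_Os07g47130 peak) with the library totals behind the RPKM, and 0 to 1 when 1 library was left out. Promoter peaks stayed at 0 to 0. Of genes with summed reads, 0 were called, against 1 with the RPKM totals and 1 with the replicate block (LOC_Os07g47130, −0.51, adjusted p = 0.0443), and 0 to 1 with 1 library left out. Partner peaks called went from 0 to between 0 and 3 with 1 library left out. The 3 came without WT replicate 2 (both OFP7 peaks and an intron peak of zpr1 at 1.26, or −0.10 without WT replicate 1). The labels share only replicate numbers, and same-numbered libraries correlated at −0.037 in their deviations, so the replicate block is no pairing by design. It left 0 homeobox peaks called. Leaving out the partner matches that are other proteins, chosen after seeing the data, left 0 called. Homeobox peaks with an unadjusted p under 0.05 numbered 8 without Oshmgb1 replicate 1 (8.98% of all peaks) and 32 without WT replicate 2 (14.1%). The set's median log2 fold change lay between −0.08 and −0.02 in all settings, and −0.04 to −0.02 with 1 library left out. The median of all listed peaks also moved, from −0.05 in the authors' deposited table to 0.01 with library totals alone.

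Of 481 recomputed values of named peaks and genes, 451 kept direction and side of the threshold, 9 passed it and 21 changed sign, and the cause was not tested. With library totals alone BLH2 became 0.00446 and HOX10 0.0103. With a mean of at least 100 reads they became 0.00404 and 0.00341. PRH became −0.00458 with the RPKM totals and −0.00952 in the authors' deposited table. With 1 library left out, the log2 fold change ranged from −0.125 to 0.0406 for HOX1, −0.106 to 0.236 for ROC5, −0.158 to 0.00523 for OSH10, −0.0565 to 0.0317 for BLH2, −0.0900 to 0.186 for ZHD9 and −0.0790 to 0.163 for PRH (peaks). For summed genes it ranged from −0.0745 to 0.0317 for HOX4, −0.178 to 0.0297 for HOX9, −0.0805 to 0.0749 for HOX10, −0.176 to 0.109 for qSH1 and −0.0280 to 0.23 for SH5.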
